A study of Homo sapiens with 25 samples.

Results

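The RNAs of 10 genes that respond to oxidative and metal stress were followed in RNA that came down with the RNA-binding protein IGF2BP1. They are HMOX1, NQO1, GCLM, GCLC, TXNRD1, SRXN1 and OSGIN1, which are targets of the transcription factor NRF2, and the metallothionein genes MT2A, MT1X and MT1E. They were chosen by name, as genes known from cells exposed to arsenite, out of 63086 genes in the count files. The choice was made with earlier results of these data known. All 10 were among the 11771 protein-coding genes tested. The values are RNA immunoprecipitation sequencing (RIP-seq) levels. In this assay a tagged protein is captured from a lysate and the RNA on the beads is sequenced.

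HCT116 cells, a human colorectal carcinoma line, carried Tet-OsTIR1-PURO and knockouts of IGF2BP2 and IGF2BP3, and expressed IGF2BP1 fused to mCherry as wild-type (WT), S181E, Y396E or RQ. S181E and Y396E place a glutamate at a residue of the disordered linkers to mimic phosphorylation, and RQ replaces arginines of a linker by glutamine. The study found S181 phosphorylated in cells, and Y396 only in vitro with the kinase Src. The fusion proteins were delivered by lentivirus, and each line was a population sorted in a narrow mCherry gate, not a clone. Control cells received PBS, and stressed cells received 500 µM sodium arsenite for 2 h. The 25 libraries were 3 of WT, S181E and Y396E per treatment, 3 of RQ in control and 2 of RQ in arsenite, and 1 of non-engineered parental HCT116 per treatment, which shows what the beads hold without a fusion protein. The dishes were plated and grown independently, according to the methods. Total RNA of the same cells was not analysed here. A RIP level is thus not divided by the amount of the RNA in the cell. More RNA in the cell cannot be told apart from more RNA on IGF2BP1 or on the beads themselves.

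Arsenite binds thiols. NRF2 is held in the cytoplasm by KEAP1, a cysteine-rich adaptor that hands it to a ubiquitin ligase, and modification of these cysteines lets NRF2 enter the nucleus and bind antioxidant response elements together with small MAF proteins. Its targets make glutathione, reduce thioredoxin and quinones and break down heme. Metallothioneins are small cysteine-rich proteins that bind zinc, copper and cadmium, and their genes are switched on through metal response elements by the zinc-sensing factor MTF1.

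The 250 bases before the RefSeq start of 4 of these genes are given because they show both elements. They come from RefSeq windows on GRCh38.p14 and are written 5′ to 3′ in the direction of the gene. Capitals mark the core of the antioxidant response element, TGACNNNGC, and the core of the metal response element, TGCACNC or TGCGCNC, each searched on both strands.
MT2A, chr16:56608334-56608583, plus strand: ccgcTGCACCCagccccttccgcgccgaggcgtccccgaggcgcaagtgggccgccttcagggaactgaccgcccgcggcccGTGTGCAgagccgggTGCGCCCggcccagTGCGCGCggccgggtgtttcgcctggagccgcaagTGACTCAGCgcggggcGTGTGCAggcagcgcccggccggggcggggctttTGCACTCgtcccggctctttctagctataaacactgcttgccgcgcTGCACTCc
MT1X, chr16:56682220-56682469, plus strand: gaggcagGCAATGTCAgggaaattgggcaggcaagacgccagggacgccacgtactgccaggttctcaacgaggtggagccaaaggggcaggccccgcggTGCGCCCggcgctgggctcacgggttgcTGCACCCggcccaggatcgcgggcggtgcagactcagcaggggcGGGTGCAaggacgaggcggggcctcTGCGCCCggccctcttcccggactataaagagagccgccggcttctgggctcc
GCLM, chr1:93909431-93909680, minus strand: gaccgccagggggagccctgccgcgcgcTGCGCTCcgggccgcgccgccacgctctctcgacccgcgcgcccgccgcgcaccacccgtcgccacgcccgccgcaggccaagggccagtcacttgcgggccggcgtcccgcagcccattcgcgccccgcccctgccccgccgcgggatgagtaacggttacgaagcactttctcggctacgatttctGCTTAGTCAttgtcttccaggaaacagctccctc
TXNRD1, chr12:104215529-104215778, plus strand: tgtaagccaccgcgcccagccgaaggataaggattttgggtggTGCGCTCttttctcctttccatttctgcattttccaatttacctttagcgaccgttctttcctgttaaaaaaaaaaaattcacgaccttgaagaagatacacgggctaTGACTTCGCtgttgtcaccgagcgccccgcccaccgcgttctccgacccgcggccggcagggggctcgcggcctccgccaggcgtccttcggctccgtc
The MT2A window held 7 metal response cores and 1 antioxidant response core, and the MT1X window held 4 and 1. The GCLM window and the TXNRD1 window shown each held 1 core of each kind. Of 35116 windows of 250 bases, 24.8% held at least 1 metal response core, 1.58% held 3 or more, and 10.9% held an antioxidant response core. The windows of NQO1 and SRXN1 held neither, that of OSGIN1 held 1 metal response core and that of GCLC held 2. The window at a second RefSeq start of TXNRD1 held 1 antioxidant response core. HMOX1 and MT1E were not among the windows. A match describes these letters and not a bound site.

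The total count of the 23 mCherry libraries lay between 22246381 and 60273548. The parental arsenite library held 18942497 counts, and the parental control library only 1238013, with 52.7% of the tested genes at 0. Mitochondrial rRNA took 31.8 to 38.2% of the counts in the 12 control libraries and 22.2 to 30.1% in the 11 arsenite libraries, so it moved with the treatment, and its part in the results was not tested. IGF2BP1 had no count in either parental library and 40.1 to 111 CPM, that is counts relative to library size, as a group mean in the mCherry lines. The transcripts of IGF2BP2 and IGF2BP3, which a knockout need not remove, were present in all lines. Of 8 epithelial and colorectal markers 7 had counts, with CDX1 at 0. VIL1 was barely present, at 0.738 CPM at most and at 0 in 11 of the 23 mCherry libraries. The summed level of the 8 was 685 to 1218 CPM in control and 1568 to 2476 CPM in arsenite. The 9 markers of other cell types summed to 1.58 to 12.8 CPM in control and 9.09 to 13.8 CPM in arsenite, with COL1A1 at up to 13.4 CPM, and COL1A2 and PTPRC were at 0 in every mCherry library.

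All levels below are CPM scaled by TMM, a factor that brings the bulk of the genes of each library to a common level. Changes are log2 fold changes with their standard errors (SE) from 1 edgeR model of the 23 mCherry libraries, tested with the quasi-likelihood test and adjusted over all 11771 genes by Benjamini-Hochberg. Each SE was derived as the absolute change divided by the square root of the F statistic of that test, and is approximate. Genes were called where the adjusted p was below 0.05 and the level changed by over 20%. The p-values measure the spread between dishes.

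Arsenite moved the RIP levels of the 10 RNAs in both directions. Averaged over the 4 lines, HMOX1, OSGIN1, NQO1 and MT1X were higher, TXNRD1, MT1E, SRXN1 and MT2A were lower, and GCLM and GCLC were not called. Both the NRF2 targets and the metallothioneins were thus split. The counts of 4 higher and 4 lower stand against 36.0% of all tested genes called higher and 35.1% called lower in the same comparison, so a call by itself is common here. The median log2 fold change of the 10 was 0.03, and that of all tested genes was 0.01.

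**Figure D1:**
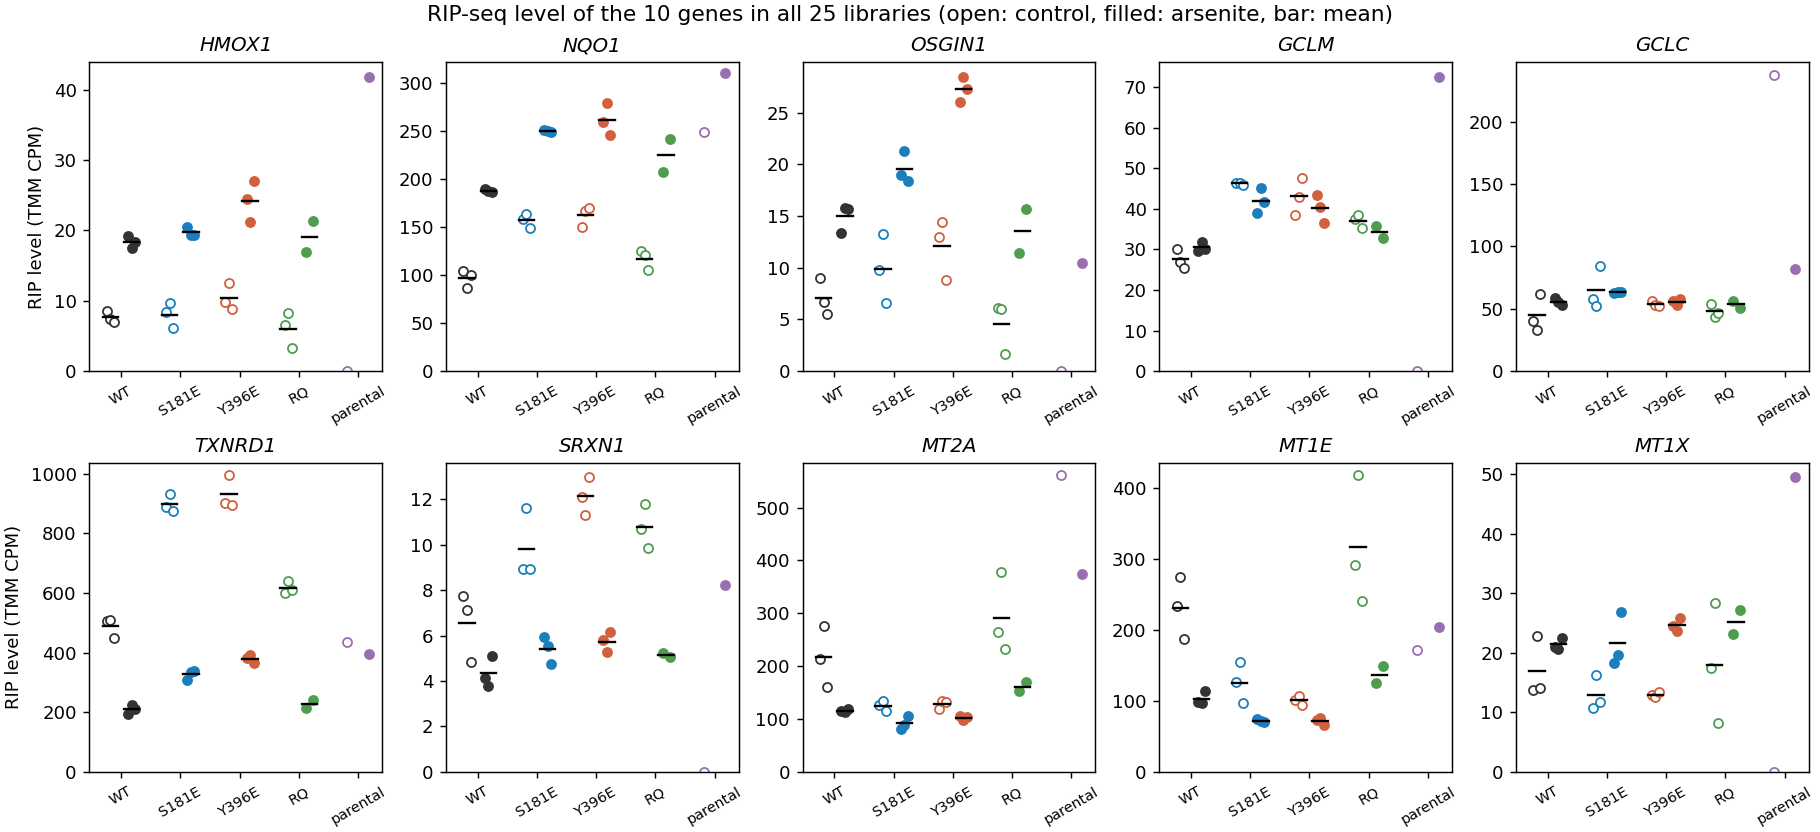
RIP level in TMM CPM (vertical axis, linear, from 0) of each gene in each of the 25 libraries, by line, with open points for control, filled points for arsenite and bars for group means. HMOX1, NQO1 and OSGIN1 rose and TXNRD1 fell without overlap in every mCherry line, and the parental arsenite library lies above all mCherry arsenite libraries for all genes but OSGIN1.

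HMOX1 encodes heme oxygenase 1, which opens the heme ring to biliverdin, iron and carbon monoxide (chromosome 22, 35381096 to 35394207, plus strand, hg38). Its level in the 3 WT control libraries was 8.60, 7.34 and 6.93 CPM, and in the 3 WT arsenite libraries it was 19.2, 17.4 and 18.3 CPM. In S181E it went from 8.36, 9.66 and 6.08 CPM to 20.5, 19.4 and 19.3 CPM. In Y396E it went from 9.78, 12.5 and 8.80 CPM to 24.4, 21.2 and 27.0 CPM. The ranges of control and arsenite stayed apart in each of these lines. In RQ the control values were 6.50, 8.21 and 3.22 CPM and the 2 arsenite values 16.9 and 21.3 CPM, again apart. The log2 fold change averaged over the lines was 1.35 ± 0.12 (SE, edgeR adjusted p = 3.3e-10), a 2.55-fold rise, and it ran from 1.23 in Y396E to 1.65 in RQ.

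OSGIN1, an oxidative stress-induced growth inhibitor (chromosome 16, 83949067 to 83966332, plus strand), was about as low as HMOX1. Its WT values were 9.03, 6.71 and 5.52 CPM in control and 13.4, 15.8 and 15.7 CPM in arsenite. Y396E had the highest arsenite values, at 26.0, 28.5 and 27.3 CPM, against 12.9, 14.5 and 8.80 CPM in control. S181E control libraries held 6.61 to 13.3 CPM and its arsenite libraries 18.4 to 21.3 CPM. Control and arsenite did not overlap in any line, RQ included, where 1.61 to 6.10 CPM stood against 11.5 and 15.6 CPM. The mean change was 1.18 ± 0.16 (SE, edgeR adjusted p = 3.4e-07), and it lay between 0.96 in S181E and 1.52 in RQ. The S181E call was lost without S181E control replicate 3 (0.74, edgeR adjusted p = 0.062).

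NQO1, the quinone reductase that spends NADPH to reduce quinones by a pair of electrons (chromosome 16, 69706996 to 69726668, minus strand), was far more abundant and its replicates lay closer together. WT libraries held 104, 86.6 and 100.1 CPM in control and 189, 187 and 186 CPM in arsenite. S181E went from 158, 164 and 149 CPM to 251, 250.1 and 249 CPM. Y396E went from 150.2, 166 and 170.3 CPM to 259.9, 279 and 246 CPM. Again no line overlapped between treatments, and RQ held 105 to 125 CPM in control and 208 and 242 CPM in arsenite. The mean rise was 1.75-fold (log2 0.80 ± 0.05, edgeR adjusted p = 2.1e-13), with single lines between 0.64 and 0.94.

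TXNRD1 encodes the cytosolic thioredoxin reductase, a selenoprotein that keeps thioredoxin reduced (chromosome 12, 104215779 to 104350307, plus strand). It had the largest fall of the 10 RNAs. WT libraries held 505, 510.3 and 449.7 CPM in control and 195, 224 and 212 CPM in arsenite. S181E fell from 889, 931 and 874 CPM to 308, 335 and 339 CPM, and Y396E from 901, 997 and 894 CPM to 382, 392 and 364 CPM. RQ fell from 599.7, 640.1 and 608.5 CPM to 214 and 242 CPM. Every arsenite library of every line lay below every control library of any line. The mean log2 fold change was -1.36 ± 0.05 (SE, edgeR adjusted p = 2.4e-18), and it lay between -1.48 and -1.23 over the 4 lines.

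SRXN1 encodes sulfiredoxin, which repairs overoxidised peroxiredoxins (chromosome 20, 646615 to 653200, minus strand). Its mean log2 fold change was -0.91 ± 0.11 (SE, edgeR adjusted p = 1.1e-07), and it was called lower in all 4 lines. Control libraries held 4.82 to 13.0 CPM and arsenite libraries 3.78 to 6.14 CPM, with an overlap in WT, where 4.82 to 7.76 CPM stood against 3.78 to 5.10 CPM. The WT call (-0.62, edgeR adjusted p = 0.022) was lost without either of the WT control replicates 1 and 2 or either of the WT arsenite replicates 1 and 2, at adjusted p between 0.050 and 0.10. Another annotated gene, ENSG00000270299, shares 90.7% of the exonic bases of SRXN1 on the same strand and had no count in any library, against 4061 for SRXN1 over all 25. The default of the counting program gives reads on exons of both genes to neither, so the level of SRXN1 is uncertain.

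The pair of subunits of glutamate-cysteine ligase, the enzyme of the first step of glutathione synthesis, did not pass the test in any line. GCLM, the modifier subunit, was at 25.4 to 47.7 CPM in the 12 control libraries and 29.7 to 45.3 CPM in the 11 arsenite libraries. Its mean log2 fold change was -0.06 ± 0.06 (SE, edgeR adjusted p = 0.33), although in S181E the control values of 45.9 to 46.5 CPM lay above the arsenite values of 39.0 to 45.3 CPM. GCLC, the catalytic subunit, was at 33.1 to 84.4 CPM and 50.6 to 63.6 CPM, with a change of 0.11 ± 0.09 (SE, edgeR adjusted p = 0.25). The direction of both turned with the scaling. With TMM factors from the 5222 genes whose mean did not exceed their parental arsenite level, 8 of the 10 members among them, the median of all genes moved to -0.36, GCLM was called lower at -0.43 and GCLC stood at -0.26. This set compares a mean over both treatments with a single arsenite library, so it can favour RNAs that arsenite raised. Scaling to such RNAs lowers all arsenite changes by itself, and the size of this effect was not tested. By line, GCLM was then called lower in S181E (-0.57), Y396E (-0.49) and RQ (-0.45), and GCLC in S181E (-0.47). With genes of all biotypes GCLM stood at 0.06, and both were called higher in WT (0.29 for GCLM, edgeR adjusted p = 0.035, and 0.46 for GCLC, edgeR adjusted p = 0.027). In WT, GCLC was called higher without WT control replicate 3 (0.59, edgeR adjusted p = 0.0026). For the remaining 8 RNAs the mean change kept its direction under all scalings, but MT1X, at 0.26 with factors from the genes at the parental level, was no longer called (edgeR adjusted p = 0.074).

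MT2A and MT1E lie close together on chromosome 16, MT2A at 56608584 to 56609497 and MT1E at 56625475 to 56627112, both on the plus strand, and their RNAs behaved alike. MT2A in WT went from 214, 276 and 159.7 CPM in control to 115, 113 and 118 CPM in arsenite. MT1E in WT went from 233, 275 and 187 CPM to 98.7, 96.4 and 114 CPM. Neither overlapped between treatments in WT. In RQ, MT2A went from 265, 378 and 232 CPM to 152 and 169 CPM, and MT1E from 291, 419 and 241 CPM to 125 and 149 CPM. In S181E and Y396E the control levels were already low, at 116 to 133 CPM for MT2A and 94.0 to 154.5 CPM for MT1E, and arsenite brought them to 81.7 to 105 CPM and 65.8 to 75.9 CPM. The mean changes were -0.65 ± 0.08 (SE, edgeR adjusted p = 1.2e-07) for MT2A and -0.93 ± 0.09 (SE, edgeR adjusted p = 7.9e-10) for MT1E. Both were called in every line but for MT2A in Y396E (-0.33 ± 0.16, edgeR adjusted p = 0.083), where the groups did not overlap. The MT2A call in S181E was lost without S181E arsenite replicate 1 (-0.40, edgeR adjusted p = 0.065), and the MT1E call in Y396E without Y396E arsenite replicate 3 (-0.44, edgeR adjusted p = 0.063).

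MT1X, from the same cluster (56682470 to 56684196, plus strand), went the other way. Its WT libraries held 13.8, 22.8 and 14.1 CPM in control and 21.1, 20.7 and 22.6 CPM in arsenite, with an overlap through the second control library. Y396E was at 12.9, 12.5 and 13.4 CPM in control and at 24.6, 23.7 and 25.9 CPM in arsenite. S181E was at 10.6 to 16.3 CPM and 18.2 to 26.9 CPM. RQ control libraries were spread from 8.18 to 28.4 CPM, around its arsenite values of 23.2 and 27.2 CPM. The mean change was 0.62 ± 0.14 (SE, edgeR adjusted p = 4e-04). MT1X was called higher in S181E (0.72) and Y396E (0.93) and not in WT (0.34, edgeR adjusted p = 0.31) or RQ (0.47, edgeR adjusted p = 0.20), and the interaction terms described further on did not show the lines to differ. The S181E call was lost on leaving out S181E control replicate 1 or 3 or S181E arsenite replicate 3, at adjusted p between 0.084 and 0.14. RQ was called without RQ control replicate 2 (0.95, edgeR adjusted p = 0.0067). Exons of ENSG00000259827 cover 41.3% of the exonic bases of MT1X on the same strand, so that its count too is uncertain. Of its stretches of 100 bases, the read length, 11.6% also occur in that gene. No such stretch of MT2A or MT1E occurs in another gene.

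**Figure D2:**
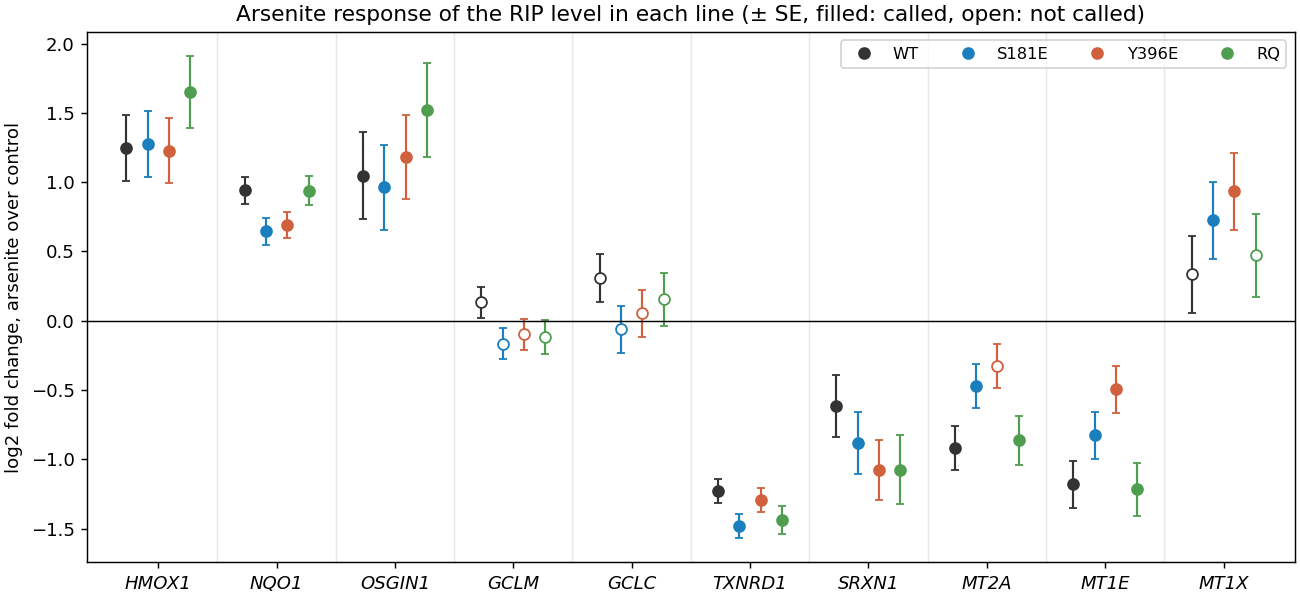
Log2 fold change of arsenite over control (vertical axis) for each gene in WT, S181E, Y396E and RQ, with bars of 1 SE and filled points for called changes. HMOX1, NQO1 and OSGIN1 lie above 0 and TXNRD1, SRXN1 and MT1E below 0 as called changes in all 4 lines, while no point of GCLM or GCLC is filled.

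Line by line, WT had 3 of the 10 called higher and 4 lower, where 30.2 and 27.5% of all tested genes were called in these directions. S181E had 4 and 4 against 28.3 and 28.9%, Y396E had 4 and 3 against 26.4 and 28.0%, and RQ had 3 and 4 against 27.4 and 26.7%. The medians of the 10 were 0.22, -0.11, -0.02 and 0.02 in WT, S181E, Y396E and RQ, and those of all tested genes 0.03, 0.01, -0.01 and -0.00. The same 6 RNAs were called in all 4 lines, HMOX1, NQO1 and OSGIN1 as higher and TXNRD1, SRXN1 and MT1E as lower. The SRXN1 call in WT was lost with no filter (edgeR adjusted p = 0.081) and with genes of all biotypes (0.083). It was also lost with glmTreat, which tests against a change of 20% (0.053), and with only the groups compared (0.22). The MT1E call in Y396E was lost with genes of all biotypes and with glmTreat (edgeR adjusted p = 0.055 and 0.064). With TMM factors from genes at the parental level the 6 calls did not all hold in S181E, which then had 1 of the 10 called higher and 6 lower, against 1896 and 5194 of the 11771 genes. NQO1 (0.25), OSGIN1 (0.57, edgeR adjusted p = 0.087) and MT1X (0.33, edgeR adjusted p = 0.28) lost their calls there, and GCLM and GCLC were called lower. With the same factors Y396E had 3 higher and 5 lower.

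The difference in response between a mutant and WT was tested by an interaction term. None of the 10 was called by edgeR in any of the 3 mutants, and DESeq2 called none either. The medians of the 10 terms were -0.17 for S181E, -0.04 for Y396E and -0.02 for RQ, and those of all tested genes -0.05, -0.05 and -0.03. At an unadjusted p under 0.05 there were 2 in S181E (NQO1 and TXNRD1), 2 in Y396E (MT2A and MT1E) and 0 in RQ, against 11.6, 15.4 and 8.84% of all tested genes, so that 2 of 10 is near the background. Among all tested genes, 0.0425% were called higher and 0.221% lower for S181E, 0.289 and 1.57% for Y396E, and 0.0510 and 0.0255% for RQ. The MT1E term for Y396E was 0.69 ± 0.24 (SE, edgeR adjusted p = 0.15) and the MT2A term 0.59 ± 0.22 (SE, edgeR adjusted p = 0.18). MT2A was called without WT control replicate 3, at 0.77 (edgeR adjusted p = 0.036).

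The mutant lines differed from the WT line in control cells. Each line was a single sorted population, and its replicates were dishes. In control and in arsenite, a mutation thus cannot be told apart from other differences between the populations. In both S181E and Y396E the NRF2 targets NQO1, GCLM and TXNRD1 were called higher, and the metallothioneins MT2A and MT1E were called lower. S181E also had GCLC higher and Y396E had SRXN1 higher. These are 4 higher and 2 lower of 10 in each mutant, against 10.3 and 6.72% of all tested genes for S181E and 12.8 and 10.1% for Y396E. Scaled to total counts alone, Y396E had 7 higher, HMOX1, GCLC and OSGIN1 among them, where 3970 of the 11771 genes were called higher. S181E then had 5 higher, SRXN1 among them, where 2606 genes were. Both comparisons use the same WT libraries. RQ had 2 called higher, GCLM and TXNRD1, and none lower, against 2.79 and 2.04%. The medians of the 10 were 0.51 in S181E, 0.55 in Y396E and 0.30 in RQ, against 0.04, 0.05 and 0.03 for all tested genes. The RIP level of the RNA of IGF2BP1 itself differed between the lines, and it is not a measure of the protein. The study used the narrow mCherry gate to keep expression of the fusion proteins comparable, and ran a Western blot of these populations. IGF2BP1 was called higher than in WT in Y396E (1.41-fold in control and 1.33-fold in arsenite) and in RQ (1.67-fold and 2.02-fold), and not in S181E (1.01-fold and 1.03-fold). In arsenite the Y396E call was lost without WT arsenite replicate 3 (0.36 on the log2 scale, edgeR adjusted p = 0.070) and with factors from genes at the parental level (0.20), and in control the Y396E and RQ calls were lost in a fit of only the groups compared (edgeR adjusted p = 0.080 and 0.17). IGF2BP3 RNA was called higher in control in S181E (1.72-fold) and Y396E (1.56-fold). The part of these RNAs in the differences between mutants and WT was not tested.

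TXNRD1 at 874 to 931 CPM in S181E and 894 to 997 CPM in Y396E stood clear of WT at 449.7 to 510.3 CPM. The changes were 0.89 ± 0.09 (SE, edgeR adjusted p = 2.1e-07) and 0.95 ± 0.09 (SE, edgeR adjusted p = 5.3e-08). NQO1 was higher by 0.71 ± 0.10 (SE, edgeR adjusted p = 1.9e-05) in S181E and 0.76 ± 0.10 (SE, edgeR adjusted p = 4.5e-06) in Y396E, and the groups did not overlap. GCLM, not called for arsenite in any line, was at 45.9 to 46.5 CPM in S181E and 38.5 to 47.7 CPM in Y396E, above the 25.4 to 30.2 CPM of WT. Its changes were 0.75 ± 0.11 (SE, edgeR adjusted p = 5.9e-05) and 0.66 ± 0.11 (SE, edgeR adjusted p = 0.00017). The GCLC call in S181E (0.55 ± 0.17, edgeR adjusted p = 0.032) was less firm, since 52.0 to 84.4 CPM overlapped with 33.1 to 61.5 CPM in WT. It was lost without WT control replicate 1 (0.47) or 2 (0.37) or S181E control replicate 3 (0.30). Factors from genes at the parental level, glmTreat and a fit of only the groups compared also ended it (edgeR adjusted p = 0.054, 0.15 and 0.28). SRXN1 in Y396E was at 11.3 to 13.0 CPM against 4.82 to 7.76 CPM in WT, a change of 0.89 ± 0.22 (SE, edgeR adjusted p = 0.0048). This call was lost in a fit of only the groups compared (0.90, edgeR adjusted p = 0.082). SRXN1 was also called in S181E without WT control replicate 1 (0.73, edgeR adjusted p = 0.040). In Y396E, OSGIN1 was called without WT control replicate 1 (1.00, edgeR adjusted p = 0.049) and GCLC without WT control replicate 3 (0.57, edgeR adjusted p = 0.013).

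The metallothioneins ran opposite. MT2A fell from 159.7 to 276 CPM in WT to 116 to 133 CPM in S181E and 119 to 133 CPM in Y396E, with changes of -0.78 ± 0.16 and -0.75 ± 0.16 (SE, edgeR adjusted p = 0.0013 in both). MT1E changed by -0.87 ± 0.17 (SE, edgeR adjusted p = 0.00091) and -1.18 ± 0.17 (SE, edgeR adjusted p = 2e-05), with no overlap. In RQ the same pair was not called and leaned higher, at 0.43 ± 0.16 for MT2A and 0.45 ± 0.17 for MT1E (edgeR adjusted p = 0.12 in both). The 2 RQ calls, GCLM at 0.43 ± 0.11 (SE, edgeR adjusted p = 0.030) and TXNRD1 at 0.34 ± 0.08 (SE, edgeR adjusted p = 0.026), were both lost without WT control replicate 3 (0.37 and 0.28) or RQ control replicate 2 (0.40 and 0.31), and GCLM also without RQ control replicate 1 (0.42). MT2A and MT1E were called without WT control replicate 2 (0.64 and 0.59) or RQ control replicate 3 (0.57 and 0.62), NQO1 without RQ control replicate 3 (0.35) and SRXN1 without WT control replicate 1 (0.86).

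**Figure D3:**
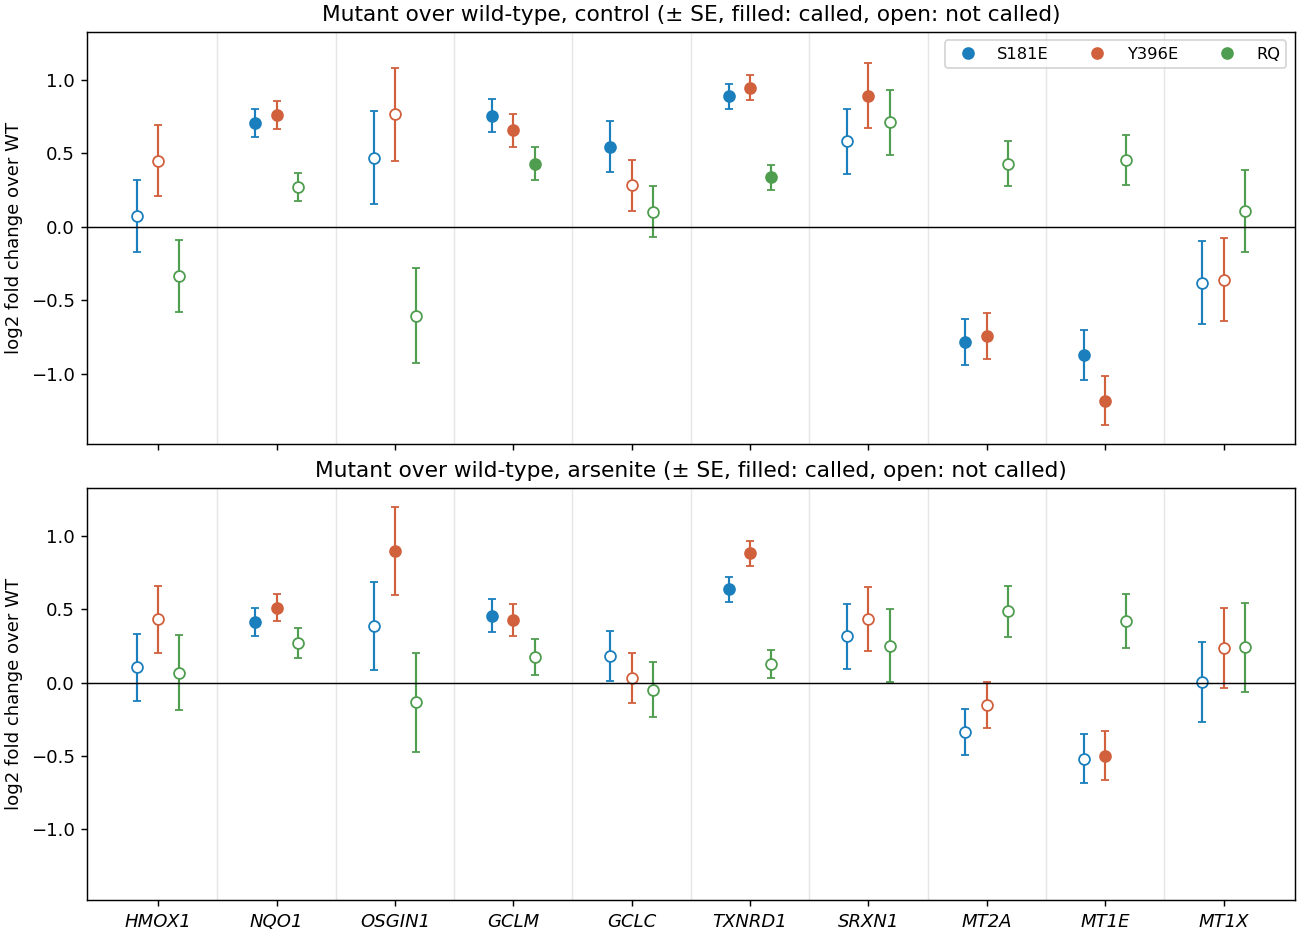
Log2 fold change of S181E, Y396E and RQ over WT (vertical axis) in control (top) and in arsenite (bottom), with bars of 1 SE and filled points for called changes. In control, NQO1, GCLM and TXNRD1 are called higher and MT2A and MT1E lower in both S181E and Y396E, and in arsenite the first 3 are still called.

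In arsenite the same 3 NRF2 targets stood out in S181E. NQO1, GCLM and TXNRD1 were called higher, 3 of 10 against 1.70% of all tested genes called higher and 3.91% lower, with a median of 0.25 for the 10 and 0.01 for all. TXNRD1 was higher by 0.64 ± 0.09 (SE, edgeR adjusted p = 2.7e-05), NQO1 by 0.41 ± 0.09 (SE, edgeR adjusted p = 0.0086) and GCLM by 0.46 ± 0.11 (SE, edgeR adjusted p = 0.013), each without overlap. The GCLM call was lost without WT arsenite replicate 1 (0.44) or 3 (0.44) or S181E arsenite replicate 2 (0.40). It was also lost with factors from genes at the parental level (edgeR adjusted p = 0.053) and with no filter (edgeR adjusted p = 0.063). With glmTreat the GCLM and NQO1 calls were both lost (edgeR adjusted p = 0.30 and 0.37). MT1E, at 70.1 to 73.8 CPM against 96.4 to 114 CPM in WT, was not called (-0.52 ± 0.17, edgeR adjusted p = 0.077). With the replicate number as a block, which the pairing of these libraries asks for, MT1E was called (-0.53, edgeR adjusted p = 0.0079). The counts and shares given first for S181E are from the fit without this block. With the block, 3 of the 10 were called higher and 1 lower, against 354 and 734 of the 11771 genes.

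Y396E in arsenite had 4 of 10 called higher and 1 lower, against 9.54 and 14.5% of all tested genes, with medians of 0.43 and 0.03. TXNRD1 was higher by 0.88 ± 0.09 (SE, edgeR adjusted p = 8.9e-08), NQO1 by 0.51 ± 0.09 (SE, edgeR adjusted p = 0.00033) and GCLM by 0.43 ± 0.11 (SE, edgeR adjusted p = 0.0067). The GCLM call was lost with factors from genes at the parental level (0.22, edgeR adjusted p = 0.18) and with glmTreat (edgeR adjusted p = 0.14). OSGIN1 was higher by 0.90 ± 0.30 (SE, edgeR adjusted p = 0.031), at 26.0 to 28.5 CPM against 13.4 to 15.8 CPM in WT. MT1E was lower by -0.50 ± 0.17 (SE, edgeR adjusted p = 0.033), at 65.8 to 75.9 CPM. The OSGIN1 call was lost on leaving out any 1 of the 6 libraries, at changes of 0.83 to 0.94 and adjusted p between 0.061 and 0.12. The MT1E call was lost on leaving out any 1 of them but WT arsenite replicate 2, at changes of -0.55 to -0.42 and adjusted p between 0.057 and 0.13. For both genes the 2 groups did not overlap. RQ in arsenite had none of the 10 called by edgeR or DESeq2, against 0.212% of all tested genes called higher and 0.127% lower. At an unadjusted p under 0.05 there were 3 of the 10 (NQO1, MT2A and MT1E, all higher), against 7.48% of all tested genes in either direction. The median of the 10 was 0.21, and that of all tested genes was -0.00.

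The parental libraries give the level of each RNA, relative to library size, on beads without a fusion protein. The amount of RNA on the beads is not known from CPM. A higher parental CPM thus does not mean that bare beads held more of an RNA. In arsenite, 9 of the 10 RNAs were lower in every mCherry line than in the parental library. HMOX1 was at 41.8 CPM there (966 counts, 95% exact Poisson interval 39.2 to 44.5 CPM, for counting error only), and the WT mean was 0.438 times as high. MT2A stood at 374 CPM in the parental library, and its WT ratio of 0.308 was at the 5.03 percentile of the tested genes. For TXNRD1 the ratio was 0.533 in WT, 0.829 in S181E and 0.960 in Y396E. OSGIN1 alone was above the parental level in all 4 lines, at ratios of 1.43 in WT, 1.87 in S181E, 2.60 in Y396E and 1.29 in RQ. Across the 11212 tested genes with a parental count, the median WT ratio was 1.03, and 7.71% were at 4 or more. The 10 RNAs ranged in WT from 0.308 to 1.43. Among its criteria for targets, the study asked for at least 4-fold over this background. In arsenite no mean of any line reached that for any of the 10. The parental library is a single library of a line that is not engineered, so these ratios have no replicate check.

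**Figure D4:**
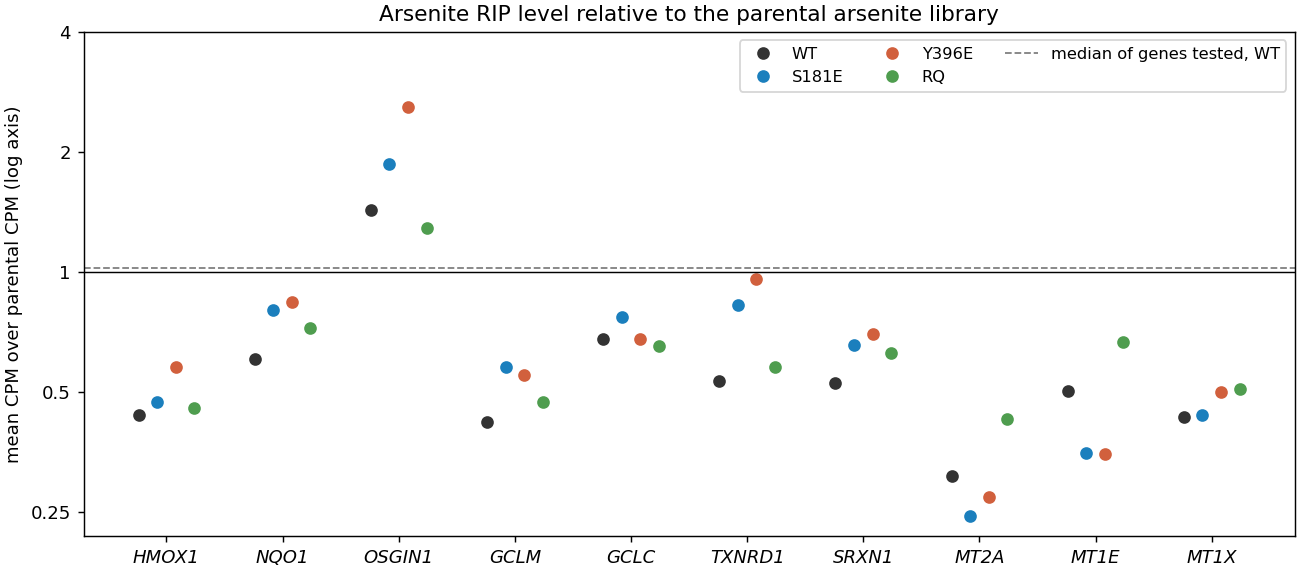
Mean arsenite RIP level of each line divided by the level in the single parental arsenite library (vertical axis, log scale), for the 10 genes. Only OSGIN1 lies above 1, and the dashed line is the median WT ratio of the tested genes, 1.03.

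In the shallow parental control library 5 of the 10, HMOX1, GCLM, SRXN1, OSGIN1 and MT1X, had no count. For counting error alone this allows up to 2.02 CPM at 3 counts. WT control levels would then be at least 3.76-fold higher for HMOX1, 13.6-fold for GCLM, 3.24-fold for SRXN1, 3.50-fold for OSGIN1 and 8.34-fold for MT1X. These bounds do not cover RNAs lost before counting, which was not tested. In the parental arsenite library GCLM was at 72.6 CPM and MT1X at 49.5 CPM, above their WT arsenite means. TXNRD1, with 646 parental counts, was at a ratio of 1.12 in WT, 2.06 in S181E and 2.13 in Y396E. MT1E was above the parental level in WT (1.35) and RQ (1.85) and below it in S181E (0.733) and Y396E (0.588). NQO1, GCLC and MT2A were below the parental level in all 4 lines. The parental level of HMOX1 itself went from 0 counts in control to 41.8 CPM in arsenite, and that of MT2A from 560.9 to 374 CPM, with 1 library each.

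Per kilobase of exon, which allows genes to be compared, MT2A and MT1E had the highest means of the 10 over all mCherry libraries of a treatment. MT2A was at 314 CPM per kb in control and 187 in arsenite, and MT1E at 184 and 87.5, with overlapping ranges over libraries. TXNRD1 followed in control with 143, within the range of MT1E and clear of NQO1 with 46.9. In the control cells of S181E and Y396E, TXNRD1 was above MT1E, with 175 against 119 CPM per kb in S181E and 182 against 95.8 in Y396E. In arsenite NQO1 came next with 81.5 and then TXNRD1 with 57.0, and the range of NQO1 overlapped with those of both MT1E and TXNRD1. By line in arsenite, NQO1 was above MT1E in S181E (88.0 against 68.5 CPM per kb) and Y396E (92.1 against 67.85). In Y396E TXNRD1, at 74.1, was above MT1E as well. MT1X was below these 4 in both treatments, with means of 19.5 and 29.7 CPM per kb, and in control its range overlapped with that of NQO1. HMOX1 was at 5.15 CPM per kb in control, and its range overlapped with that of GCLM. In arsenite it was at 13.2 and cleared GCLC at 9.03, but stayed below MT1X. SRXN1 is not ranked, since 90.7% of its exonic bases are shared with another gene and its count is uncertain.

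Across the 23 libraries, which span both treatments and 4 lines, the log2 levels of HMOX1 and OSGIN1 had a Pearson r of 0.932, those of HMOX1 and NQO1 one of 0.876, and those of TXNRD1 and SRXN1 one of 0.904. MT2A and MT1E had an r of 0.965, whereas MT2A and MT1X had one of -0.07. The genes most like HMOX1 among all tested were TUBB4B (0.981), DDX56, MCM5, U2AF2 and TOMM40 (0.978), none of them an NRF2 target on the lists used here. Those most like MT2A were MT1E, NDUFC1 (0.934), AREG, UQCRB and RPL30 (0.912). The metallothionein RNAs are short, with 606 exonic bases in MT2A, 777 in MT1X and 1052 in MT1E. Of the 1178 genes with the shortest exons, up to 1649 bases, 39.4% were called lower and 24.2% higher by arsenite, and their median change was -0.15, against 0.03 for the rest. HMOX1, with 1554 bases, is also among these genes, and the part of length in the results was not tested.

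Other RNAs of the same pathways were split too. Of 32 further NRF2 targets 24 were tested, and 15 were called higher and 8 lower in the mean arsenite comparison, with a median of 0.56, against 36.0 and 35.1% of all tested genes and their median of 0.01. The highest of these were IDH1 (1.42 ± 0.08, SE), TKT (1.31 ± 0.07) and PGD (1.23 ± 0.06), which serve the supply of NADPH and the pentose phosphate pathway, and ABCC1 (1.32 ± 0.07), an exporter of glutathione conjugates. The lowest were MAFG (-1.91 ± 0.07), a small MAF partner of NRF2, the ferritin chains FTL (-1.56 ± 0.08) and FTH1 (-1.20 ± 0.06), and TRIM16 (-0.72 ± 0.11). All 8 were called in each of the 4 lines in the same direction, apart from TRIM16, called in 2. TXN, the substrate of thioredoxin reductase, was lower as TXNRD1 was (-0.57 ± 0.07), and so was the cystine carrier SLC7A11 (-0.63 ± 0.06). With TMM factors from genes at the parental level the counts were 10 higher and 9 lower, and glutathione reductase, GSR, not called otherwise (0.03 ± 0.04), was then called lower (-0.34, edgeR adjusted p = 1e-06).

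Of the 10 genes that control NRF2, 5 were called higher and 5 lower, with a median of -0.00, and in each direction a call was common among all tested genes (36.0 and 35.1%). NFE2L2, which encodes NRF2, rose by 0.88 ± 0.06 (SE, edgeR adjusted p = 4.6e-13), and its relative NFE2L1 by 0.81 ± 0.05. KEAP1 (0.44 ± 0.08, not called at 0.08 with factors from genes at the parental level), its ligase scaffold CUL3 (0.94 ± 0.06) and BTRC (0.67 ± 0.07), a receptor of another ligase of NRF2, rose with them. RBX1, the RING subunit of the CUL3 ligase, fell (-1.14 ± 0.12), as did the small MAF genes MAFF (-0.69 ± 0.07) and MAFK (-0.92 ± 0.07) and the coactivator CREBBP (-0.45 ± 0.06). BACH1, the heme-sensing repressor of HMOX1, fell by 1.85 ± 0.07 on the log2 scale (edgeR adjusted p = 6.3e-17).

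**Figure D5:**
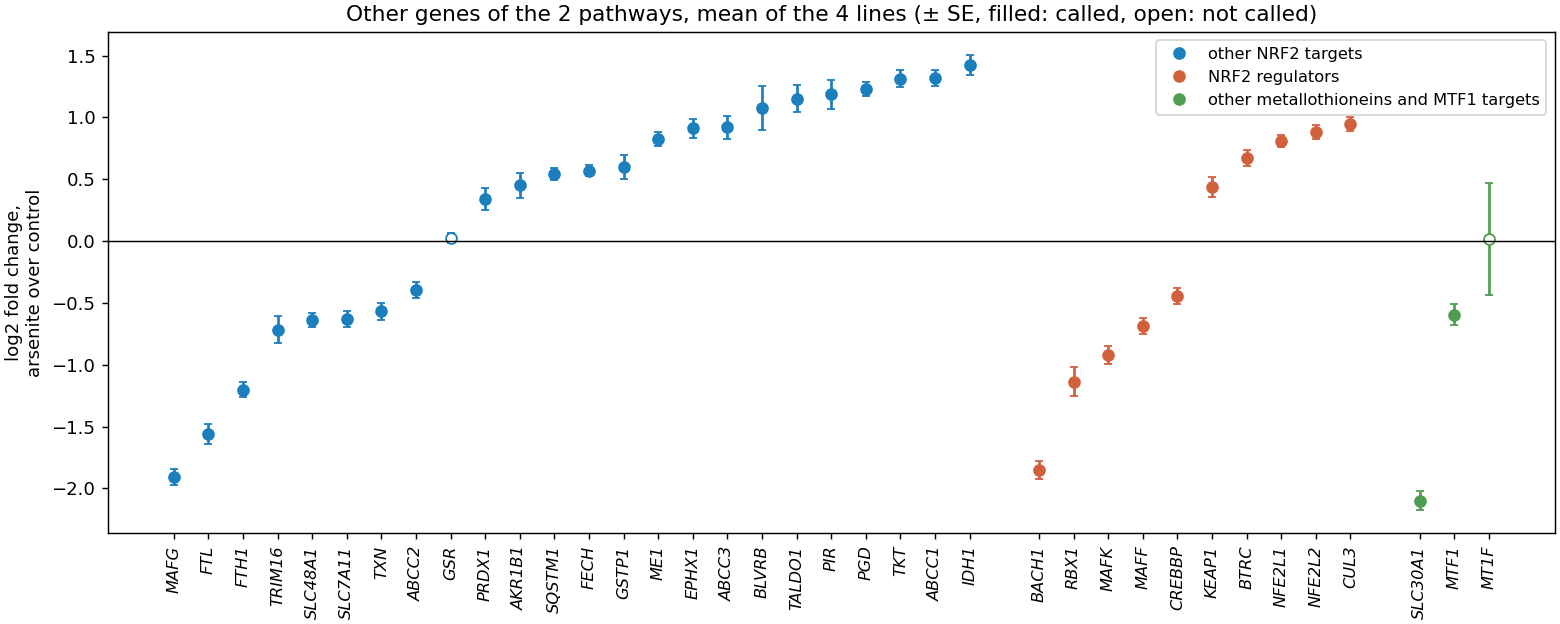
Log2 fold change of arsenite over control, mean of the 4 lines (vertical axis), with bars of 1 SE, for further NRF2 targets, NRF2 regulators, and metallothioneins with MTF1 targets, with filled points for called changes. Changes run from -2.10 for SLC30A1 to 1.42 for IDH1, and each of the first 2 lists holds genes on both sides of 0.

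Of 10 further metallothioneins and genes of the metal response only 3 were tested, the others being too low. MTF1 itself was lower (-0.60 ± 0.09, SE, edgeR adjusted p = 1.1e-06). SLC30A1, the zinc exporter that MTF1 switches on, had the lowest value of the genes named here, at 89.0 to 109 CPM in WT control and 22.1 to 29.1 CPM in WT arsenite (mean of the lines -2.10 ± 0.08, edgeR adjusted p = 2.1e-17). MT1F, at 1.09 CPM in WT arsenite, was not called (0.02 ± 0.45). In the comparison of mutants with WT, 5 of the 24 further NRF2 targets were called higher and 1 lower in S181E control cells, with a median of 0.15, and 7 and 1 in Y396E control cells, with a median of 0.17. The shares of all tested genes were 10.3% higher and 6.72% lower in S181E and 12.8 and 10.1% in Y396E. With total counts the counts of the list were 9 and 1 in S181E and 17 and 0 in Y396E, and with factors from genes at the parental level they were 5 and 1 and 4 and 1.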

How the data were processed

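RIP-seq libraries of HCT116 cells were analysed from the gene counts that the authors deposited, without normalization. Alignment by the authors used STAR 2.7.11b on hg38 with at most 2 mismatches, and reads were counted by strand on exons of GENCODE genes with featureCounts 2.0.6. By default, reads that map to several places or overlap several genes are left out. Symbols and biotypes came from another GENCODE release, where 62541 of 63086 identifiers were found.

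Counts of 20044 protein-coding genes were used. Those with a mean of at least 1 CPM over the 23 mCherry libraries were tested, which left 11771. The study's own filter, more than 10 CPM in 12 of 23 libraries, was an alternative, because a gene present only in arsenite could not pass it. edgeR 4.0.16 (TMM, quasi-likelihood test) fitted 8 groups with no covariate, in R 4.3.3 with limma 3.58.1. DESeq2 1.42.0 was an alternative. The parental libraries entered no test. Printed CPM use TMM factors over all 25 libraries. Tables and plots used Python, pandas and matplotlib. Replicate numbers are shared between groups. For S181E and WT in arsenite, the deviations of same-numbered libraries from their group means correlated in all 3 pairs (r 0.165 to 0.224), so these libraries were taken as paired. The main fit leaves this pairing out, and the fit with the replicate number as a block is an alternative. All libraries had distinct counts. The fits were tested on simulated counts.

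The members and the pathway lists were chosen with earlier results of these data known. The named genes are all 10 members, IGF2BP1, IGF2BP2 and IGF2BP3, the 4 highest and 4 lowest called genes of a longer list, all genes of a shorter list and any gene with a called interaction. From the list of further NRF2 targets, 1 gene is not reported here and was left out of its counts. TXN, SLC7A11, PRDX1, CDX1, VIL1, COL1A1, COL1A2 and PTPRC were named after their values were seen. Alternatives covered scaling, filter, test, call rule, replicate block, samples in the model and each library left out. Applying them to the pathway lists and to IGF2BP1, IGF2BP2 and IGF2BP3 was decided after seeing the data. Intervals and floors cover counting error only, and an adjusted p that DESeq2 gave as NA stayed NA.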

Additional observations from a re-analysis of the deposited data

Results flagged for a closer look

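For 3 of the pathway RNAs the arsenite change differed between Y396E and WT by the interaction term of the edgeR model. FECH, the ferrochelatase of heme synthesis, had an interaction of -0.85 ± 0.13 (SE, edgeR adjusted p = 0.001), with an arsenite change of 1.00 in WT and 0.15 in Y396E, and was called under every alternative run. CUL3 had an interaction of -0.61 ± 0.15 (SE, edgeR adjusted p = 0.035), with changes of 1.25 and 0.64, and was lost in 8 of the 12 fits that left out 1 library, all but those without WT control replicate 2 or 3, Y396E control replicate 1 or WT arsenite replicate 3 (edgeR adjusted p between 0.056 and 0.10). It was also lost with DESeq2 size factors (0.073), with factors from genes at the parental level (0.054), with no filter (0.063) and with glmTreat (0.21), each value an adjusted p. GSR, glutathione reductase, had an interaction of -0.46 ± 0.12 (SE, edgeR adjusted p = 0.043), with changes of 0.31 and -0.15, of which only the first was called. It was lost in 10 of these 12 fits, all but those without WT control replicate 1 or 3 (edgeR adjusted p between 0.058 and 0.12). The same 4 settings ended its call (edgeR adjusted p of 0.075, 0.052, 0.14 and 0.39), as did filterByExpr (0.053) and a fit of only the groups compared (0.068).

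IGF2BP3, whose transcript is still present in the knockout cells, had an interaction of -0.57 ± 0.11 (SE, edgeR adjusted p = 0.039) in S181E and -0.47 ± 0.11 (SE, edgeR adjusted p = 0.029) in Y396E. Its arsenite change was -0.68 in WT, -1.25 in S181E and -1.15 in Y396E. Both terms were lost with DESeq2 size factors, with factors from genes at the parental level, with no filter, with glmTreat and in a fit of only the groups compared (edgeR adjusted p between 0.051 and 0.34). The S181E term was lost in 8 of the 12 fits that left out 1 library, all but those without a WT control replicate or S181E control replicate 2 (edgeR adjusted p between 0.060 and 0.13). The Y396E term was lost in 7 of 12, all but those without a WT control replicate, Y396E control replicate 2 or WT arsenite replicate 3 (edgeR adjusted p between 0.054 and 0.11).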

How the results depend on the processing

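No called change of the 10 RNAs turned its direction under any alternative run, and the mean arsenite comparison had 8 calls under all but the study's filter, which SRXN1 did not pass and which left 7. The TMM factors from genes at the parental level gave 8 as well, with GCLM in place of MT1X. For RQ against WT in control, where 2 were called, the count was 4 with total counts only and 4 with the replicate block, and 0 with factors from genes at the parental level, with no filter, with glmTreat and with only the groups compared, and it ran from 0 to 5 on leaving out 1 library. For Y396E in arsenite, with 5 called, it was 3 with factors from genes at the parental level, 2 with glmTreat and 3 to 4 on leaving out 1 library. For S181E in arsenite, with 3 called, it was 1 with glmTreat and 6 with only the groups compared. For RQ in arsenite it was 2 (MT2A and MT1E, higher) with only the groups compared. For the Y396E interaction it was 1 with the replicate block (MT1E, 0.66, edgeR adjusted p = 0.031) and 0 to 1 on leaving out 1 library. The cause was not tested. The block also added MT2A in Y396E by arsenite, OSGIN1 in Y396E control, and MT2A and MT1E in RQ control. Same-numbered libraries correlated at r 0.0319 to 0.174, 0.0193 to 0.205 and 0.045 to 0.216 in these comparisons, in this order. The lower values kept them from being taken as paired, although the upper ones were like those of S181E and WT in arsenite. No such r was computed for the interactions. Whether the block suits these comparisons was not tested, so a call lost or gained there is no measure of its strength. Total counts without TMM moved the median of all genes to 0.21 for S181E, 0.32 for Y396E and 0.13 for RQ in control. Raising parental counts to 3 left the printed ratios as they are. Among all tested genes, factors from genes at the parental level moved the mean arsenite calls from 4234 higher and 4133 lower to 2621 and 6081, the median to -0.36, and those of Y396E against WT in arsenite from 1123 and 1709 to 350 and 2775 and in control from 1511 and 1186 to 787 and 1784. Total counts turned those of Y396E in arsenite the other way, to 2829 and 918, and moved the calls of Y396E against WT in control from 1511 and 1186 to 3970 and 526, of S181E in control from 1208 and 791 to 2606 and 452, of S181E in arsenite from 200 and 460 to 809 and 278, and of RQ in control from 328 and 240 to 759 and 168. With only the groups compared, RQ against WT had 3 and 1 in control, and 485 and 456 in arsenite where 25 and 15 were called, and S181E had 153 and 191 in control and 983 and 1183 in arsenite. With glmTreat, Y396E had 671 and 601 in control and 369 and 886 in arsenite, and S181E 398 and 347, and 52 and 186. With the block, S181E in arsenite had 354 and 734, RQ in control 606 and 477, and the interactions 42 and 146 for S181E (5 and 26 without it), 144 and 558 for Y396E (34 and 185) and 15 and 18 for RQ (6 and 3). The DESeq2 Wald test gave 63 and 84, 111 and 262, and 33 and 29 for these. Among the pathway RNAs, PRDX1 turned from a called 0.34 to -0.0212 and GSR from 0.03 to a called -0.34, both in the mean arsenite comparison with factors from genes at the parental level. The 1238013 counts of the parental control library limit its ratios.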
